A study of Homo sapiens with 14 samples.

Results

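The transcriptional kinases CDK8 and CDK9 were each targeted by 4 sgRNAs in a pooled base editor library. These sgRNAs were taken as every entry whose name begins with *CDK8* or *CDK9*, which gave 8 of the 9077 sgRNAs in the library. A further 1000 sgRNAs were non-targeting controls and 7999 carried the identifier of an m6A site, an adenosine that can be methylated in RNA. The number after each gene name only tells the sgRNAs of that gene apart.

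The library was read out in a proliferation screen and in a differentiation screen. For proliferation, A549 lung carcinoma cells stably expressing FNLS-BE3 carried the library and were sampled at day 0 (1 library) and at days 10, 20 and 30 (2 replicates each). Day 0 was taken once blasticidin selection of the infected cells had ended, so any change before it is not seen. FNLS-BE3 is a cytosine base editor, a Cas9 nickase fused to a cytidine deaminase, which converts C to T near the sgRNA target. For differentiation, H1 human embryonic stem cells stably expressing FNLS-ABE7.10(AW) were infected with the library and differentiated to definitive endoderm for 3 days. They were sorted into CXCR4+ and CXCR4- populations in 3 screens, CXCR4 being a surface receptor that marks endoderm. Each population was a small share of the cells, those with the highest or the lowest CXCR4 expression, so cells in between are not read. FNLS-ABE7.10(AW) is an adenine base editor, which converts A to G. Both editors were delivered by lentivirus and every library comes from a mixed population of infected cells, so edited and unedited cells are read together. The fraction of edited cells at the *CDK8* and *CDK9* targets was not analysed here.

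CDK9 is the kinase of P-TEFb, in which it binds cyclin T. It phosphorylates RNA polymerase II and the factors that hold it near promoters, and so releases paused polymerase into elongation. Short-lived messages of proliferating cells are known to depend on it strongly. CDK8 is the kinase of the Mediator kinase module, with cyclin C, MED12 and MED13. It tunes the link between enhancer-bound factors and polymerase, and its paralog CDK19 can take its place in many cells. Both are called transcriptional kinases to separate them from cell cycle kinases such as CDK2 and CDK6.

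The library holds sgRNAs against named genes that the study designed to create premature stop codons with the cytosine editor, and the *CDK8* and *CDK9* sgRNAs are taken to be among them, although the text does not list them one by one. A stop can arise where a C-to-T change turns CAA, CAG or CGA into TAA, TAG or TGA, or where the same change on the other strand alters a TGG codon. An adenine editor cannot make a stop codon from a coding one, so the same 8 sgRNAs are not stop-forming in the H1 screen by this route. The sgRNA sequences themselves are not used here. The positions open to such an edit were therefore read from the reference genome GRCh37 with the GENCODE canonical transcripts, for 20-base protospacers followed by an NGG PAM and an editable C at protospacer position 4 to 8. *CDK9* lies at chr9:130547958-130553071 on the plus strand, has 7 coding exons and 372 codons, and held 8 codons that such an edit could turn into a stop, from codon 4 to codon 316. *CDK8* lies at chr13:26828241-26995119 on the plus strand, has 13 coding exons and 464 codons, and held 10 such codons, from codon 53 to codon 440. Which of these positions the 8 sgRNAs address is not known from the sources used here.

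One protospacer for each reachable *CDK9* codon is shown, because these are the places where the edit that the screen relies on can be written. Each is given 5′ to 3′, with capitals marking the C or adjacent CC whose conversion gives the stop.
Codon 4, coding exon 1, chr9:130548430-130548449, plus strand: ggcaaagCagtacgactcgg
Codon 27, coding exon 1, chr9:130548503-130548522, plus strand: ggcCaaggcaccttcgggta
Codon 131, coding exon 4, chr9:130550345-130550364, plus strand: gtgatgCagatgctgcttaa
Codon 193, coding exon 5, chr9:130550624-130550643, minus strand: ggtaCCagagtgtcaccaca
Codon 213, coding exon 6, chr9:130550842-130550861, minus strand: caccCCacaggtcaatgggg
Codon 253, coding exon 7, chr9:130551445-130551464, minus strand: ggcCacacctgggagggagg
Codon 271, coding exon 7, chr9:130551510-130551529, plus strand: gggcCagaagcggaaggtga
Codon 316, coding exon 7, chr9:130551639-130551658, minus strand: ggtcggaCcagaagaagtcg
For *CDK8*, the first and the last reachable codons are shown to mark how far into the gene the window begins and ends.
Codon 53, coding exon 2, chr13:26911726-26911745, plus strand: ttaaaaCaaatagaaggaac
Codon 440, coding exon 13, chr13:26978137-26978156, plus strand: atcaCagccgcagagcagca

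In A549, sequencing gave 15969599 reads at day 0 and between 14925937 and 16457222 reads in the 6 later libraries. The H1 libraries held between 8076271 and 11341078 reads. Values are normalized counts, and LFC is the log2 ratio of a value plus 1 to the day 0 value plus 1, or of CXCR4+ to CXCR4-. Since A549 has a single day 0 library, an error there moves all LFCs of an sgRNA together. The median LFC of all sgRNAs was close to 0 at each day, at -0.00 at day 30. The non-targeting sgRNAs spread more with time: their SD was 0.27 and 0.26 in the replicates of day 10 and 0.47 and 0.48 at day 30.

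All 4 *CDK9* sgRNAs were below their day 0 abundance in A549 cells at day 30, and *CDK9*-4 was lowest by a wide margin. *CDK9*-4 had a normalized count of 1996 at day 0, 1120 and 992 in the replicates of day 10, 834 and 737 on day 20, and 780 and 636 on day 30. Every later library was below day 0, the replicates of day 10 were above those of day 20, and the libraries of days 20 and 30 overlapped. Day 10 gave a mean LFC of -0.92 ± 0.12 (SD, n = 2) and day 20 one of -1.35 ± 0.13. The LFC of -1.50 ± 0.21 at day 30 corresponds to 35.3% of the day 0 abundance.

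Most of the day 30 difference from day 0 in *CDK9*-4 was present by day 10. Its LFC changed by -0.43 from day 10 to day 20 (replicates -0.42 and -0.43) and by -0.15 from day 20 to day 30 (replicates -0.10 and -0.21). The change over the first 10 days was more negative than that over the last 10, with a difference of -0.77 (95% CI -1.63 to 0.09), an interval that includes equal rates.

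In all 6 later libraries *CDK9*-4 was under the limit that cut off the bottom 1% of non-targeting sgRNAs. Of the 1000 non-targeting sgRNAs, 3 and 2 had a lower LFC in the replicates of day 10, 0 and 0 on day 20, and 7 and 1 on day 30. Against the spread of the non-targeting sgRNAs it was thus furthest out at day 20, at -4.47 and -4.58 of their SDs from their median, compared with -2.93 and -3.52 at day 30. Among all 9077 sgRNAs it ranked 12th and 5th from the bottom at day 20, and 77th and 24th at day 30.

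The study used an LFC limit of -1 for day 30 over day 0, and here the limit is also applied to days 10 and 20. *CDK9*-4 was past the limit at days 20 and 30 and the other 7 *CDK8* and *CDK9* sgRNAs were not. At day 10, 6 of all sgRNAs (0.0661%) and none of the 8 had a mean LFC below -1. At day 20, 15 sgRNAs (0.165%) passed, *CDK9*-4 among them and 0 non-targeting sgRNAs. At day 30, 138 sgRNAs (1.52%) passed, *CDK9*-4 and 10 non-targeting sgRNAs among them. That count rests on the mean of both libraries and was 265 without replicate 1 and 277 without replicate 2 of day 30.

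By limma with Benjamini-Hochberg adjustment over all sgRNAs, *CDK9*-4 had an adjusted p of 1.0 at day 10, of 0.999 at day 20 and of 0.232 at day 30. With a replicate block the adjusted p at day 30 was 0.0382, in a fit that called 44 of all sgRNAs (0.485%) lower, 3 of them non-targeting. With a linear trend over day it was 0.0373, where 47 sgRNAs (0.518%) were called lower, again with 3 non-targeting ones. The 95% CI of its LFC was -1.59 to -0.25 at day 10, -2.01 to -0.68 at day 20 and -2.17 to -0.83 at day 30. The fit used the same residual spread for an sgRNA at every day, although the spread of the non-targeting sgRNAs grew with time. How these p-values and intervals differ between days therefore does not measure how the evidence changed. Of 9077 sgRNAs, 0 (0%) were lower at an adjusted p under 0.05 at any of the days. At an unadjusted p under 0.05, 31 sgRNAs (0.342%) were lower at day 10, 80 (0.881%) at day 20 and 513 (5.65%) at day 30. *CDK9*-4 was in each of these groups and *CDK9*-2 in that of day 30. Of the 1000 non-targeting sgRNAs, 4, 5 and 56 were lower at that level at days 10, 20 and 30. The day 30 group of *CDK9*-2 thus held 5.6% of the non-targeting sgRNAs, beside 5.65% of all. None of the 8 sgRNAs was higher at that level, beside 1.06%, 1.91% and 7.38% of all sgRNAs at the 3 days. Among the 1000 non-targeting sgRNAs, 11, 19 and 82 were higher.

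The other 3 *CDK9* sgRNAs had LFCs nearer to 0. *CDK9*-2 stood at 2424 at day 0, at 2272 and 2365 on day 10, at 1854 and 2034 on day 20, and at 1759 and 1564 on day 30. Each day lay below the one before it with no overlap. Its LFC at day 30 was -0.55 ± 0.12 (95% CI -0.99 to -0.10, limma adjusted p = 0.316).

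*CDK9*-3 started at 1872 and gave 1585 and 1714 on day 10, 1507 and 1486 on day 20, and 1254 and 1686 on day 30. Its replicates were 0.02 log2 units apart at day 20 and 0.43 at day 30, when replicate 2 was close to its day 10 value. The LFC at day 30 was -0.36 ± 0.30 (95% CI -0.93 to 0.20).

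*CDK9*-1 started at 2259 and gave 2093 and 2488 on day 10, 2009 and 2403 on day 20, and 1573 and 1943 on day 30. Its day 0 value lay between the replicates at days 10 and 20 and above both at day 30. The change from day 20 to day 30 was -0.35 and -0.31 in the replicates, and the LFC at day 30 was -0.37 ± 0.22 (95% CI -0.90 to 0.16).

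The gap between *CDK9*-4 and the next lowest *CDK9* sgRNA was wide in each library. In log2 units it was 0.59 and 0.88 on day 10, 0.87 and 1.10 on day 20, and 0.78 and 1.02 on day 30. The next lowest was *CDK9*-3 in 4 of the 6 libraries and *CDK9*-2 in the other ones. The 4 *CDK9* sgRNAs share a target and are no replicates of each other. Their median LFC moved from -0.17 and -0.08 in the libraries of day 10 through -0.35 and -0.29 (day 20) to -0.55 and -0.42 (day 30).

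All 4 *CDK9* sgRNAs were below 0 in both libraries of day 30, a pattern shared by 31.6% of all sgRNAs and by 296 of the 1000 non-targeting sgRNAs. *CDK9*-2, *CDK9*-3 and *CDK9*-4 were below 0 in all 6 later libraries, as were 17.1% of all sgRNAs. For these 3 the mean LFC was also lower at each later day, a pattern seen in 8.7% of all sgRNAs and in 71 non-targeting sgRNAs. The median LFC of the *CDK9* sgRNAs at day 30 was -0.46, beside -0.00 for all sgRNAs.

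sgRNAs against *AAVS1*, a safe harbour locus used as a targeting control, bear on the size of these values. The mean LFC at day 30 was -0.57 for *AAVS1*_1, 0.03 for *AAVS1*_2 and -0.83 for *AAVS1*_3. The values of *CDK9*-1, *CDK9*-2 and *CDK9*-3 lie within that range and the value of *CDK9*-4 lies below it. By limma the unadjusted p of *AAVS1*_1, *AAVS1*_2 and *AAVS1*_3 at day 30 was 0.0341, 0.924 and 0.0137. The adjusted p was 0.346, 0.979 and 0.294. At an unadjusted p under 0.05, 2 of the 3 *AAVS1* sgRNAs were thus lower, beside 2 of the 4 *CDK9* sgRNAs. What part a general effect of targeting has in the *CDK9* values was not tested.

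*CDK8* sgRNAs showed no common direction in A549. *CDK8*-1 stood at 1158 at day 0, at 1301 and 1440 on day 10, at 1696 and 1152 on day 20, and at 1595 and 1312 on day 30. It was above day 0 in 5 of the 6 later libraries, and its LFC at day 30 was 0.32 ± 0.20 (95% CI -0.35 to 0.996).

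*CDK8*-2 stood at 1181 at day 0, at 952 and 991 on day 10, at 745 and 979 on day 20, and at 667 and 1301 on day 30. The last replicates lay on either side of day 0 and gave LFCs of -0.82 and 0.14. Their gap of 0.96 log2 units was 13.7 times its read counting error. This was the widest gap between replicates among the 8 sgRNAs at any day.

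*CDK8*-3 stood at 1415 at day 0, at 1595 and 1339 on day 10, at 1387 and 1145 on day 20, and at 1446 and 1184 on day 30. Replicate 1 was higher than replicate 2 at each day, by 0.25 to 0.29 log2 units. The LFC at day 30 was -0.11 ± 0.20 (95% CI -0.72 to 0.49).

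*CDK8*-4, the least abundant of the 8 at day 0, stood at 744, then at 729 and 669 on day 10, at 833 and 609 on day 20, and at 885 and 615 on day 30. The replicates enclosed the day 0 value at days 20 and 30. The LFC at day 30 was -0.01 ± 0.37 (95% CI -0.87 to 0.84), an interval that includes the LFC of *CDK9*-2.

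For the 4 *CDK8* sgRNAs the median LFC read 0.07 and -0.12 in the libraries of day 10, 0.07 and -0.28 in those of day 20, and 0.14 and -0.06 in those of day 30. In 5 of the 6 libraries it was above the *CDK9* median of the same library, by only a little in replicate 2 of day 20 (-0.28 and -0.29). In replicate 2 of day 10 it was below, at -0.12 beside -0.08. No test compared the genes, since 4 sgRNAs of a gene are not independent samples.

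Other cyclin-dependent kinases in the library gave a further reference, namely the cell cycle kinases CDK2 and CDK6, and CDK5, which is best known from neurons. Of the 12 sgRNAs against *CDK2*, *CDK5* and *CDK6*, 11 had a mean LFC below 0 at day 30, against 50.3% of all sgRNAs, with a median of -0.35. For 4 of them p was under 0.05 without adjustment, beside 5.65% of all sgRNAs lower at that level, and for 0 with it. *CDK2*-3 and *CDK6*-1 were past -1, at -1.08 and -1.10, and neither reached the -1.50 of *CDK9*-4.

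The A549 time course nearest to that of *CDK9*-4 belonged to *CDK6*-1, by the Euclidean distance over 6 LFCs (1.21, the smallest among 63 sgRNAs against named genes). *CDK6*-1 went through mean LFCs of -0.57, -0.82 and -1.10 at days 10, 20 and 30. *CDK2*-3 (1.46), *CDK6*-4 (1.64) and *BAP1*-3 (1.67) came next. All of these LFCs share the day 0 library. Among 14 genes compared by their median profile, *BAP1* (0.28) and *CDK2* (0.34) were nearest to *CDK9*, and *MYB* (0.14) and *TGFB1* (0.36) were nearest to *CDK8*.

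In H1, no *CDK8* or *CDK9* sgRNA passed the test between the sorted populations. The study took p from MAGeCK and left out sgRNAs predicted to cause missense mutations. Here p is a one-sided limma p and no such sgRNAs were left out, so the counts are not those of the study. Its thresholds, a median LFC beyond 0.58 and a p under 0.05, called 185 of 9044 tested sgRNAs (2.05%) for CXCR4+ cells and 157 (1.74%) for CXCR4- cells. None of the 8 was among them, although all 8 passed the filter of a mean of 200 in each population. Of 997 tested non-targeting sgRNAs, the same thresholds called 13 (1.3%) for CXCR4+ cells and 22 (2.21%) for CXCR4- cells. By limma 340 sgRNAs (3.76%) had an unadjusted two-sided p under 0.05, with 0 of the 8 and 0 sgRNAs (0%) after adjustment. The adjusted p of each of the 8 sgRNAs was 1.0.

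*CDK9*-4, the lowest of the 8 in A549, gave normalized counts in CXCR4- and CXCR4+ cells of 824 and 1384 in screen 1, 1311 and 1258 in screen 2, and 1359 and 1106 in screen 3. The CXCR4+ value was higher in screen 1 and lower in screens 2 and 3. The median LFC was -0.06 ± 0.55 (SD, n = 3), and the limma estimate of 0.13 had a 95% CI of -0.39 to 0.65. The H1 LFC compares sorted populations, while the A549 LFC compares abundance over time, and the editor and the cells differ too. The H1 interval therefore does not tell whether the A549 change recurs in H1.

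*CDK9*-3 was the only one of the 8 with the same sign in all 3 screens, which 25% of tested sgRNAs had. Its counts in CXCR4- and CXCR4+ cells were 1028 and 1100, 1065 and 1258, and 1050 and 1162 in screens 1 to 3. The LFCs of 0.10, 0.24 and 0.15 were the tightest of the 8 (median 0.15 ± 0.07, limma 95% CI -0.34 to 0.66).

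*CDK9*-2 gave LFCs of 0.80, -0.74 and 0.22 in the 3 screens, with 2463 in CXCR4- and 1479 in CXCR4+ cells of screen 2. *CDK9*-1 gave 0.34, 0.07 and -0.49. Both changed sign between screens. The limma 95% CIs were -0.44 to 0.63 for *CDK9*-2 and -0.50 to 0.44 for *CDK9*-1.

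The *CDK8* sgRNAs changed sign between screens as well. *CDK8*-2 gave LFCs of 0.34, 0.64 and -0.54 (95% CI -0.41 to 0.70). *CDK8*-3 gave -0.45, 0.51 and -0.58 (95% CI -0.73 to 0.38).

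*CDK8*-1 and *CDK8*-4 were the scarcest of the 8 in H1 and had the widest limma intervals. *CDK8*-1 gave 171 in CXCR4- and 400 in CXCR4+ cells of screen 1, 344 and 301 in screen 2, and 570 and 617 in screen 3. The high LFC of screen 1, 1.22, rested on 144 and 458 reads, and 991 of 997 tested non-targeting sgRNAs were lower in that screen. The other screens gave -0.19 and 0.11 (95% CI over all 3, -0.66 to 1.42).

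*CDK8*-4 gave 206 and 279 in screen 1, 405 and 162 in screen 2, and 526 and 525 in screen 3. Here screen 2 stood out, at an LFC of -1.32 on 473 and 166 reads, with 13 of 997 non-targeting sgRNAs lower. Screens 1 and 3 gave 0.44 and -0.00 (95% CI over all 3, -1.44 to 0.85).

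The representation of the 8 sgRNAs also differed between the screens for *CDK8* more than for *CDK9*. Levels were set over the median of the non-targeting sgRNAs of the same library, since the A549 and H1 tables were normalized separately. From A549 at day 0 to the mean of the H1 libraries, *CDK8*-1 went from 0.677 to 0.379, a ratio of 0.559 with 1.74% of all sgRNAs lower. *CDK8*-4 went from 0.435 to 0.331, a ratio of 0.761 with 14.0% of sgRNAs lower. *CDK8*-2 went the other way, from 0.690 to 0.996, a ratio of 1.44 with 95.4% of sgRNAs lower, as did *CDK8*-3 at 1.24 with 85.1% lower. Over all sgRNAs, the lowest 5% had ratios under 0.654 and the highest 5% had ratios above 1.43. *CDK8*-3 and *CDK8*-4 lay between these limits, *CDK8*-2 lay just above the upper one and *CDK8*-1 lay below the lower one. The 4 *CDK9* sgRNAs had ratios between 0.960 and 1.04, beside a median of 0.986 over all sgRNAs. In H1 the level of *CDK8*-1 was lowest in the CXCR4- library of screen 1 (0.163) and highest in the CXCR4+ library of screen 3 (0.592). These are levels in different cells with different editors and no undifferentiated H1 library is used, so representation at infection and later change cannot be told apart.

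Replicate 1 was above replicate 2 at days 20 and 30 for *CDK8*-1, *CDK8*-3, *CDK8*-4 and *CDK9*-4 and below it for *CDK8*-2 and *CDK9*-1. For *CDK9*-4 replicate 1 was higher by 0.17, 0.18 and 0.29 log2 units at days 10, 20 and 30, which is 2.76, 2.49 and 3.74 times the read counting error. Counting error alone therefore understates the spread of these values, and the sources do not say whether replicates of a given number share a culture.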

How the data were processed

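sgRNA cassettes were amplified from genomic DNA and sequenced. Per the submitters' processing notes, CASAVA 1.4, cutadapt and MAGeCK were used. The authors deposited 1 table of normalized sgRNA abundance for each screen, a signal scaled within its table. In each library 100% of the deposited signal values were whole multiples of 1 step within 0.05, and dividing by that step gave the read totals. No correction for copy number or editing rate is part of these values. Intervals from counts cover counting error only.

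LFCs used log2(value + 1). They were tested with limma 3.58.1 (R 4.3.3, lmFit and eBayes with a variance trend) over all sgRNAs of a screen, with Benjamini-Hochberg adjustment and two-sided p. The A549 fit had 7 libraries with day as a factor and a residual spread shared by all days, and the H1 fit had 6 sorted libraries. For the thresholds of the study in H1 the limma p was one-sided, since MAGeCK was not run. A mean of 200 in each population was required in H1, which left out 33 sgRNAs. Summaries used Python 3.11.15. The undifferentiated H1 library was not analysed here. The fit code was tested on simulated data.

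All 8 sgRNAs of the 2 genes are named. For likeness, the 4 sgRNAs and the 2 genes with the smallest distance within a fixed list were named. The sgRNAs, the lists of other kinases and the controls were chosen with earlier results of these data known. The comparison of the first with the last 10 days and the search for stop sites were chosen after seeing the data. The p-values measure the spread between libraries, which may be partly technical. The H1 populations of a screen come from 1 sorted culture, which pairs them. Their deviations from the population means correlated at 0.0852, 0.0731 and 0.293 within screens 1, 2 and 3, and the paired fit changed no call there.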

Additional observations from a re-analysis of the deposited data

How the results depend on the processing

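In A549 the LFC of *CDK9*-4 at day 30 was below -1 under all 14 alternatives, from -1.65 to -1.34. Several of them cannot change this LFC. These are a replicate block, a fit without the variance trend, a minimum at day 0 and leaving out a day 10 or day 20 library. The single day 0 library was part of every alternative. In the fits that kept all libraries the adjusted limma p of *CDK9*-4 at day 30 was between 0.0373 and 0.267. Leaving out replicate 1 or replicate 2 of day 30 gave -1.65 or -1.35, which is the LFC of *CDK9*-4 in the remaining replicate. With a replicate block its LFC stayed at -1.50 and the adjusted p was 0.0382, and with a linear trend over day it was -1.34 with an adjusted p of 0.0373. Each of these fits called 1 of the 8 sgRNAs lower, against 0 without them, beside 44 (0.485%) and 47 (0.518%) of all 9077 sgRNAs and 3 non-targeting sgRNAs in each. In either direction they called 25 and 16 non-targeting sgRNAs. The sources do not say what replicate numbers share in A549, where the replicate difference correlated at 0.57 for days 10 and 20, 0.636 for days 20 and 30, and 0.394 for days 10 and 30. The number of all sgRNAs below -1 at day 30 ran from 138 to 277 when single libraries were left out, 265 without replicate 1 and 277 without replicate 2 of that day. *CDK9*-1 to *CDK9*-3 were below 0 at day 30 in 42 of 42 alternatives, which include the settings that cannot change a day 30 LFC. In the fits that kept all libraries none of these 3 sgRNAs had an adjusted limma p under 0.05 at day 30.

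Of 492 alternative values, many of which their setting cannot change, 464 kept direction and call, so the 464 does not measure stability. A sign change was seen in 20, none of them in a value that passed the adjusted test. Rescaling to the non-targeting median gave -0.021 for *CDK9*-1 at day 10 and 0.033 for *CDK8*-4 in H1, and the linear trend gave 0.026 for *CDK8*-4 at day 30. Without single libraries, day 10 values ran from -0.080 to 0.17 for *CDK8*-3 and -0.11 to 0.14 for *CDK9*-1. Day 20 values ran from -0.0076 to 0.55 for *CDK8*-1, -0.17 to 0.089 for *CDK9*-1 and -0.29 to 0.16 for *CDK8*-4. Day 30 values ran from -0.82 to 0.14 for *CDK8*-2, -0.26 to 0.032 for *CDK8*-3 and -0.27 to 0.25 for *CDK8*-4. In H1, leaving out a screen gave -0.039 to 0.67 for *CDK8*-1, -0.10 to 0.49 for *CDK8*-2, -0.52 to 0.029 for *CDK8*-3, -0.66 to 0.22 for *CDK8*-4, -0.21 to 0.20 for *CDK9*-1, -0.26 to 0.51 for *CDK9*-2 and -0.18 to 0.34 for *CDK9*-4. None of the 80 H1 alternatives reached an adjusted p under 0.05. The cause of these differences was not tested beyond the libraries and settings named. A count test on reads was planned and not run.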
